A study of Saccharomyces cerevisiae with 6 samples.

Results

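Convergent neighbours are adjacent genes on opposite strands whose 3′ ends face each other. They were found from the systematic names of the yeast genes, in which W and C give the strand (plus and minus) and consecutive numbers give the order along a chromosome arm. On a right arm a W gene was paired with the C gene of the next higher number, and on a left arm with the C gene of the next lower number. Both genes had to be in the table, and every cluster of polyadenylation (pA) sites of both was a member. This gave 761 pairs with 1522 of 4014 genes and 5363 of 13565 clusters. Pairs are written with the W gene first.

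The libraries came from Saccharomyces cerevisiae in mid-log growth. The deletion group consisted of 3 libraries from yeast lacking JHD2, a histone lysine demethylase of the KDM5 family, and the wild-type group of 3 libraries from yeast with JHD2 intact. The labels give no strain background, and nothing in them says whether the replicates were separate cultures, so p-values refer to the spread among the 6 libraries and may reflect technical variation only. Polyadenylated RNA was sequenced from its 3′ end by 3′READS, so that 1 read marks the end of 1 transcript and levels need no correction for length.

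In budding yeast, cleavage and polyadenylation are directed by weak sequence elements upstream of the cut, among them UA-rich efficiency elements such as UAUAUA and A-rich positioning elements. The genome is compact, and where genes converge, termination of one transcript takes place close to, or inside, the transcription unit of the other. Overlapping convergent mRNAs are complementary at their 3′ ends, and collisions of polymerases and antisense pairing are known from such loci.

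The table held 233749 to 480847 reads per library, of which convergent genes held 37.3% to 38.0%. JHD2 itself had 0 clusters in the table, so the deletion was not checked from its own reads. Wild-type replicate 2, the shallowest library, stood apart. Its log-scaled gene levels correlated with those of the other libraries at 0.938 to 0.948 across genes, against 0.959 to 0.975 for every other pair of libraries. No library pair differed by sampling noise alone (chi-square per degree of freedom 1.36 or more). Coordinates are 1-based on sacCer3 and mark the last aligned base. Genomic A that continues into the tail cannot be told from the tail, so the cut may lie upstream within a run of A.

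Where facing ends overlap, 1 sequence element can lie before the ends of both genes. TATATA is its own reverse complement, so a single copy reads the same for the W and the C transcript. The lines below give 30 bases of the plus strand for pairs in which 1 copy lay within 100 nt before both most-read ends, with the TATATA in capitals (adjacent overlapping copies included).

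EMC3/ADD66: taagttcgtggcTATATAtgcacttgtata
MTQ1/GCD10: attgcaactaagTATATAaatgtaaatata
PMS1/SWS2: atattcattcatTATATAattaacaaatac
ECT1/STF2: taggcatgcaagTATATAcctatagatgca
ELF1/RCN1: ttacttaggtcaTATATAttttatatttta

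These stretches lie at chrXI:48953-48982, chrXIV:508692-508721, chrXIV:476023-476052, chrVII:508012-508041 and chrXI:153731-153760. In EMC3/ADD66 the TATATA lay 48 nt before the EMC3 end on one strand and 29 nt before the ADD66 end on the other. In MTQ1/GCD10 the distances were 38 and 30 nt, in PMS1/SWS2 57 and 25 nt, in ECT1/STF2 56 and 76 nt, and in ELF1/RCN1 54 and 31 nt. A further TATATA lay nearer the W end in MTQ1, 22 nt before it, and in PMS1, 37 nt before it. The windows of 100 nt before the 2 ends shared 6 nt or more in 426 of the 761 pairs, with a median of 77 nt shared. Of those 426 pairs, 186 (43.7%) had at least 1 TATATA within both windows. Any copy in the shared stretch counts for both windows by construction. A single window of 100 nt held TATATA in 46.6% of convergent genes. Most shared stretches were shorter than such a window, so the 2 shares cannot be set against each other. Whether shared copies are preferred was not tested.

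TATATA lay in that window in 46.6% of the 1522 convergent genes, in 44.2% of the 2491 other genes with an annotation and in 3.88% of windows of the same length taken inside the coding regions of the convergent genes. TACATA lay in 21.9%, 21.3% and 2.37% of these windows, and TATGTA in 23.1%, 20.6% and 1.84%. At least 1 of these 3 motifs lay in 70.0% of convergent and 66.1% of other windows, against 7.62% of coding windows. The windows before the ends were also richer in A and T, at 72.8%, 71.5% and 61.9%. AATAAA was found in 22.1%, 20.4% and 7.88%, TTTTTT in 23.8%, 22.5% and 4.07%, and AAGAAA in 15.4%, 13.05% and 22.8%. The share before the ends was thus above that in coding windows for all these motifs except AAGAAA. The motifs were searched on the transcript's strand. TATATA overlaps itself and can overlap TACATA and TATGTA, and a match is a description of letters, not of a site in use.

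A second set of sequences shows how close facing ends can lie. Each line gives 30 bases in the direction of the transcript, with the last aligned base in capitals.

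GSY2: tacttgaaaaagtgattcctaaaaAtctca
HSP60: tgaaaaaagttgagatttttaggaAtcact
MGR3: gtacctaatgataacctttctttcAttact
ASC1: ataatcgtcatagatttcgaagtaAtgaaa

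The most-read ends of GSY2 (chrXII:663173-663202) and HSP60 (chrXII:663183-663212) passed each other by 10 nt, so the sequences around the ends are in part complementary. Those of MGR3 (chrXIII:499302-499331) and ASC1 (chrXIII:499322-499351) fell on adjacent bases, with an overlap of 0 nt. In 30 pairs, these included, the most-read ends either overlapped by at most 10 nt or lay at most 10 nt apart.

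Across all pairs, facing transcripts overlapped more often than not. The stop codons of a pair were a median of 233 nt apart (interquartile range 141 to 349, extremes -35 and 8042), and 4 pairs had coding regions that overlapped. The most-read end of a convergent gene lay a median of 126 nt past its stop codon. The most-read ends of the 2 genes overlapped in 466 of 761 pairs (61.2%), and at least 1 cluster of each overlapped in 679 (89.2%). Among the 466 overlapping pairs the overlap had a median of 99 nt (interquartile range 76.3 to 129). In the 295 others the ends were a median of 141 nt apart (overlap of -141 nt). An annotated gene lay between the stop codons in 52 pairs.

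**Figure D1:**
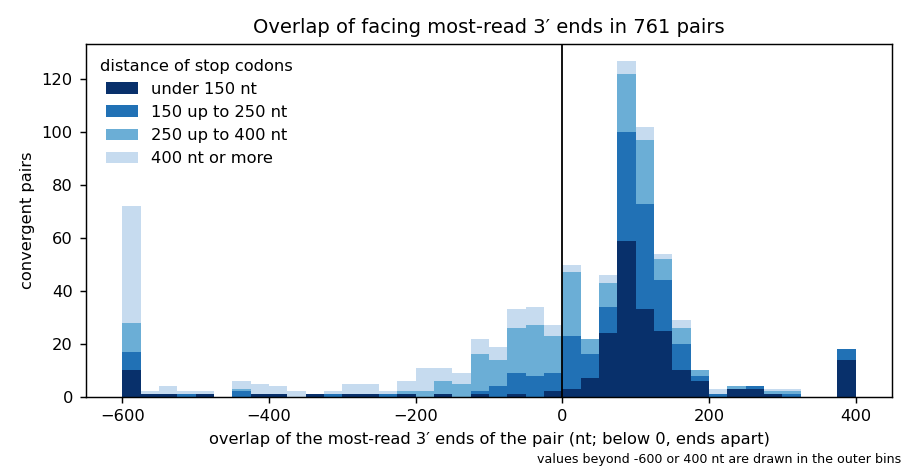
Histogram of the overlap between the most-read 3′ ends in 761 convergent pairs (x axis in nt, y axis in pairs), stacked by the distance between stop codons. Most pairs lie right of 0, around the median of 99 nt of the overlapping pairs. Of those 466 pairs, 188 had stop codons under 150 nt apart (darkest bars) and 154 had them 150 up to 250 nt apart. The outer bins also hold 70 values below -600 nt and 17 above 400 nt.

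The room between the genes went with the overlap. Of the 212 pairs with stop codons under 150 nt apart, 88.7% had overlapping most-read ends, by a median of 94 nt. The share was 77.8% of 198 pairs at 150 up to 250 nt, 48.8% of 203 pairs at 250 up to 400 nt, 22.1% of 113 pairs at 400 to 1000 nt and 0% of 35 pairs over 1000 nt apart. The most-read ends lay a median of 100.5 nt past the stop codon in the closest class, 129.5 nt in the second, 141.5 nt in the third, 170 nt at 400 to 1000 nt and 149 nt in the 35 pairs over 1000 nt apart. Median distances past the stop codon thus grew with the room between the genes up to 1000 nt. The most widely spaced pairs did not continue that order. In the 726 pairs with stop codons at most 1000 nt apart, the room was set against the summed distances of both most-read ends. The Spearman correlation across pairs was 0.46. The distances of the W end and the C end past their own stop codons had one of -0.07. These correlations describe pairs of 1 genome in pooled libraries.

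**Figure D2:**
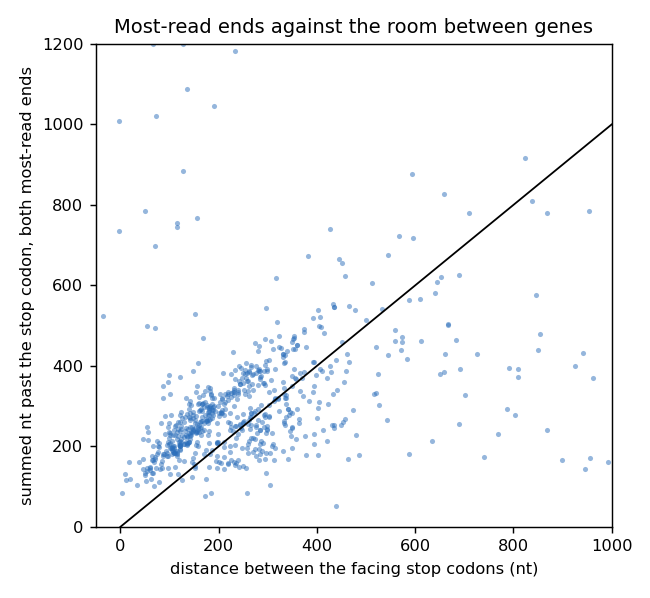
Each point is 1 pair with stop codons at most 1000 nt apart (x axis in nt), plotted against the summed distance of both most-read ends past their stop codons (y axis in nt); the line marks equality, and points above it are pairs whose ends overlap. Of 726 pairs, 675 are drawn, 2 of them at the upper edge, and 51 with a sum below 0 are not drawn.

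By place, 3108 of the 5363 clusters, with 87.8% of the convergent genes' reads, lay between the stop codons. Another 1134 clusters in 665 genes, with 9.98% of the reads, lay inside the coding region of the facing gene, antisense to it. The genes' own coding regions held 1075 clusters with 2.05% of the reads, and 46 clusters with 0.192% lay beyond the facing gene. The most-read end of 275 genes (18.1%) lay inside the facing coding region, in 189 pairs for 1 gene of the pair and in 43 pairs for both. A run of 6 or more genomic A ended at 207 member clusters (3.86%) with 7.60% of the reads, where priming on the genomic run was not tested. Such runs ended 0.750% of the reads inside facing coding regions and 39.7% of the few reads beyond the facing gene.

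Compared with the genes in no convergent pair, convergent genes had a mean of 3.52 clusters against 3.29, and 28.0% against 33.2% of them had 2 clusters. Their clusters spanned a median of 250 nt against 204 nt, and the most-read cluster held a median of 68.9% of a gene's reads against 72.8%. The most-read end lay a median of 126 nt past the stop codon against 123 nt, and 119 nt for upstream genes of tandem pairs. The way clusters were given to genes bears on these values, since a gene was extended by up to 1000 nt until the next gene on its own strand. A facing gene does not stop that extension, while the next gene of a tandem pair does. The part of this rule in the difference was not tested.

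Several mRNAs ended entirely within the coding region of their neighbour. In EMC3 (YKL207W, chrXI:48194-48955), a subunit of the membrane protein complex that inserts proteins into the endoplasmic reticulum, the reads numbered 682, 653 and 835 in deletion replicates 1, 2 and 3 and 653, 330 and 495 in the wild-type replicates. All 3648 of them lay in the coding region of ADD66, a gene of proteasome assembly, with 50 nt between the stop codons. The main EMC3 end at 49018 (63 nt downstream of the stop codon) took 94.5% ± 0.696 of EMC3 reads in the deletion group and 94.6% ± 0.563 in wild type. ADD66 (YKL206C, chrXI:49006-49809) ended in turn inside EMC3, at 48936, with 95.8% of its 144 reads. The ends of the 2 mRNAs thus crossed the whole interval between the genes in all 6 libraries.

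The same held for EGD2, NIT3, SWS2 and GCD10, whose reads lay at 100% inside the facing coding region in each of the 6 libraries. EGD2, the alpha subunit of the nascent polypeptide-associated complex, had 1100 reads and ended mainly 64 nt past its stop codon inside LNP1, a gene of endoplasmic reticulum shape. NIT3, of the nitrilase family, had 1462 reads and ended 112 nt past its stop codon inside ORM2, a regulator of sphingolipid synthesis. SWS2, a predicted mitochondrial ribosomal protein, had 844 reads and ended 178 nt past its stop codon inside the mismatch repair gene PMS1. GCD10, a subunit of a tRNA methyltransferase, had 825 reads that ended inside MTQ1, a methyltransferase gene. The GCD10 end 102 nt downstream held 65.1% ± 1.58 in the deletion group and 62.7% ± 2.15 in wild type, and that at 156 nt 29.0% ± 2.29 and 31.9% ± 2.31. Clusters below the authors' minimum are not in the table, so reads elsewhere at a low share were not analysed here.

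Of the 982 convergent genes with on average at least 20 reads per library, 162 had over 50% of their reads inside the facing coding region, 295 had over 10% and 565 had none. The mean share was 46.3% in the 260 genes with under 150 nt between the stop codons. It was 15.9% in 245 genes at 150 up to 250 nt, 5.04% in 274 at 250 up to 400 nt and 1.54% in 203 at 400 nt or more. In 818 of the 982 genes (83.3%) the same cluster was the most read in all 6 libraries.

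Both genes reached an average of 20 reads per library in 311 pairs, and for these the overlap was computed from all reads, as the read-weighted mean end of the W gene minus that of the C gene. This mean overlap was above 0 in 144 pairs (46.3%), with a median of -14.7 nt (interquartile range -175 to 86.4). Reads inside a gene's own coding region enter this mean. As a second measure, in which each read counts by its side alone, all pairings of 1 W read with 1 C read were counted. The median pair had overlapping ends in 70.2% of pairings. More than 90% of pairings overlapped in 111 pairs, under 10% in 62 and none in 31.

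The largest mean overlap was in LNP1/EGD2, at 659.6, 623.4 and 682.7 nt in the deletion group and 683.2, 658.2 and 580.3 nt in wild type. It rests on reads of LNP1 at 488382, beyond EGD2 and 720 nt from its own stop codon, with 87.9% of LNP1 reads, which ends a genomic run of A.

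LNP1: gatgaaaaattttcaaaaaaaaaaAcagac

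That stretch (chrVIII:488358-488387, plus strand, last aligned base in capitals) is shown because 11 A in a row end there. The next in order was ABF2/IRC21, ABF2 being the DNA-packaging protein of mitochondria, with a mean overlap of 302 nt. It was followed by RPB4/YUR1, a subunit gene of RNA polymerase II facing a mannosyltransferase gene, with 264 nt. ELF1/RCN1, an elongation factor facing a calcineurin regulator, had 241 nt, NAT5/SEC63, of protein acetylation and of translocation into the endoplasmic reticulum, 232 nt, and YJR084W/TMH11 220 nt. Library values of RPB4/YUR1 ran from 199.9 to 422.7 nt, and those of ABF2/IRC21, from 267.1 to 356.9 nt, fell inside that range. From ABF2/IRC21 on, each pair's library values overlapped with those of the next pair in this order, while ABF2/IRC21 lay above YJR084W/TMH11 (170.0 to 259.9 nt) in all libraries. In RPB4/YUR1, ELF1/RCN1, NAT5/SEC63 and YJR084W/TMH11, 100% of read pairings overlapped. Their most-read ends overlapped by only 94, 91, 94 and 67 nt in that order, and those of ABF2/IRC21 by 241 nt. The larger means of these pairs thus rest in part on less-read clusters farther along.

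Of the 4 pairs with the smallest mean overlap, LSC1/THI80, GLC7/YER134C and TOS8/VPS45 had annotated genes between their stop codons and SWI1/HST2 had none. LSC1/THI80, of the citric acid cycle and of thiamine pyrophosphate synthesis, had a mean overlap of -7088 nt, with stop codons 7336 nt apart. GLC7/YER134C, GLC7 being a protein phosphatase catalytic subunit, stood at -2600 nt and TOS8/VPS45 at -2385 nt. In SWI1/HST2, a chromatin remodeller subunit facing a deacetylase gene, the stop codons lay 851 nt apart and the most-read ends had an overlap of -412 nt. The mean of -2408 nt there comes from clusters inside the coding regions.

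Pairs with the most reads were very unequal in the level of their genes. In BLI1/FBA1 the glycolytic aldolase FBA1 had 27429 reads and BLI1, a gene of endosomal trafficking, 29. RPL34B, a ribosomal protein gene, had 26465 reads facing 4455 of the glycerol phosphatase GPP1, with an overlap of -141 nt between most-read ends. Its most-read cluster also ended in a genomic run of A. RPS20 had 16164 reads against 406 of YLF2. The most-read end of YLF2 lay near the start of its own coding region, at -1213 nt relative to its stop codon. MF(ALPHA)2, which encodes a mating pheromone, had 15691 reads against 79 of the DNA end-joining gene LIF1. ASC1, a ribosome-associated protein gene, had 14993 against 29 of MGR3. HSP150/CIS3, both of the cell wall, were the nearest to equal of the 6 most-read pairs, with 7275 and 7990 reads, and 7.58% of their read pairings overlapped. Over all pairs the more-read gene had a median of 3.22 times the reads of its partner. The ratio was over 10 in 130 pairs and under 2 in 228.

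The levels of the 2 genes of a pair showed little relation in rank. The Spearman correlation of their mean CPM (scaled counts per 1000000 reads) was 0.006 over 551 convergent pairs with both genes tested, -0.030 over 838 tandem and 0.064 over 452 divergent pairs. It was 0.052 in the 111 pairs with over 90% of pairings overlapping and 0.047 in the 62 with under 10%. Median levels in these 2 classes were 155 and 164.8 CPM per gene. Values over pairs describe the same 6 libraries and are given with no test.

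With regard to JHD2, the first question was whether facing ends moved against each other. Averaged over the 311 pairs, the mean overlap was -148, -154 and -162 nt in deletion replicates 1, 2 and 3 and -145, -157 and -151 nt in the wild-type replicates. The difference of -3.35 nt was smaller than the spread between libraries of either group (SD 6.86 and 6.06 nt, n = 3 per group, exact two-sided permutation p = 0.6, where 0.1 is the smallest value possible). It ranged from -5.93 nt without deletion replicate 1 to -0.490 nt without deletion replicate 3, and was -0.821 nt without wild-type replicate 1 and -5.66 nt without wild-type replicate 2. As a median over pairs in place of the mean, the difference was -7.24 nt (exact permutation p = 0.1, the smallest possible), and with a minimum of 10 reads, over 536 pairs, the mean differed by -11.2 nt (exact permutation p = 0.2). Overlapping pairings made up 59.0% ± 0.358 in the deletion group and 59.1% ± 0.801 in wild type (difference -0.0542 points, exact permutation p = 1, n = 3 per group). With the pairings of all pairs pooled, a pair counts by the product of the reads of its 2 genes. The difference was then 3.03 points (exact permutation p = 0.1, the smallest possible), so its direction depended on the weighting. Such a weight moves with gene levels, and the part of levels in this difference was not tested.

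The mean share of reads inside the facing coding region was 17.9%, 17.9% and 17.6% in the deletion group and 18.2%, 18.0% and 18.0% in wild type over the 982 genes. All 3 deletion values lay below all 3 wild-type values, by a mean of 0.27 points (difference -0.272), and the exact permutation p of 0.1 is the smallest this design can give (n = 3 per group, two-sided). Leaving out 1 wild-type library gave differences of -0.227, -0.270 and -0.263 points for replicates 1, 2 and 3, with exact permutation p of 0.3, 0.2 and 0.2, and p stayed at 0.1 without any 1 deletion library. As a mean end, counted from the most upstream retained cluster, convergent genes stood at 233 nt ± 1.38 in the deletion group and 234 nt ± 0.634 in wild type (746 genes), and other genes at 193 nt ± 1.26 and 192 nt ± 1.97 (1173 genes). The difference between convergent and other genes was 40.2 nt ± 0.457 in the deletion group and 42.8 nt ± 2.59 in wild type, lower by 2.51 nt (difference -2.51, exact permutation p = 0.2, n = 3 per group). Without wild-type replicate 2 it was -0.764 nt, and against upstream genes of tandem pairs alone it was -4.66 nt (exact permutation p = 0.1, the smallest possible).

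**Figure D3:**
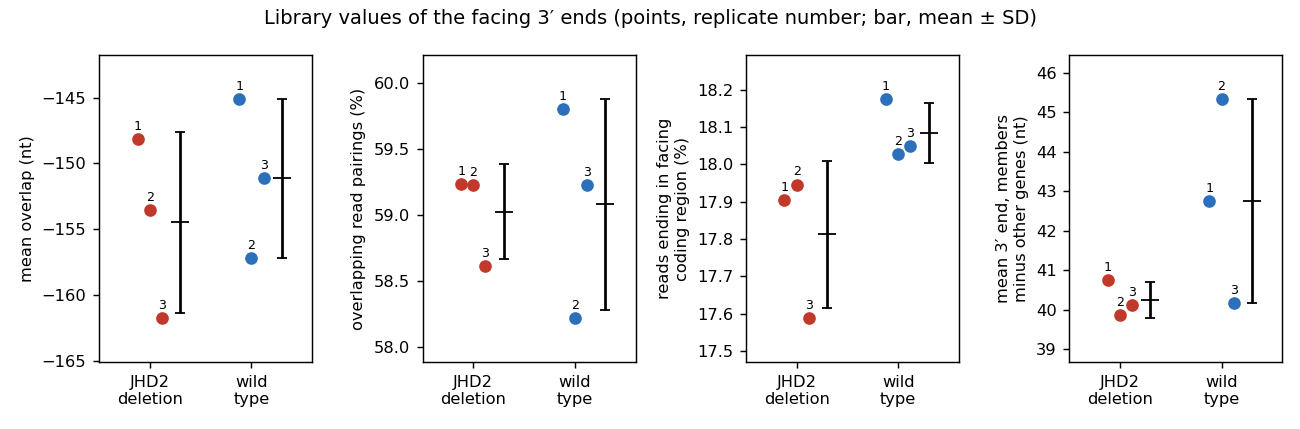
Points are the 6 libraries (red, JHD2 deletion; blue, wild type; numbers, replicate) and black bars the mean ± SD of 3, for mean overlap (nt), overlapping read pairings (%), reads ending in the facing coding region (%) and the mean 3′ end of convergent minus other genes (nt); y axes do not start at 0. The groups are separate only in the third panel, with a difference of -0.272 percentage points.

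For single pairs, the libraries of the 2 groups did not overlap in mean overlap in 35 of 311 pairs (11.3%), 10 with more (3.22%) and 25 with less overlap in the deletion (8.04%). These shares are the background of this comparison, since every pair that could be measured was a convergent one. For comparison, mean ends of single genes were farther in the deletion without overlap of groups in 20 of 791 convergent genes (2.53%) and nearer in 55 (6.95%). Over all 2020 genes the shares were 3.81% and 6.98%. The median change over pairs was -0.490 nt, and 148 pairs changed by less than 10 nt.

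Among the pairs whose groups did not overlap, the 3 largest rises and 3 largest falls rested mainly on reads inside the genes' own coding regions. Mean overlap was higher in the deletion by 347 nt in UBP7/GUT2, a ubiquitin protease gene facing one of glycerol use, by 251 nt in YGP1/ASI2 and by 162 nt in GPI12/AEP2, of membrane anchor synthesis and mitochondrial gene expression. With clusters past the stop codon only, the changes were -15.2, 9.24 and -10.8 nt. It was lower (differences of -343, -198 and -132 nt) in PUT3/URB1, of proline use and ribosome assembly, in GAS1/PSE1, of cell wall glucan and nuclear import, and in SER3/UTP7, of serine synthesis and ribosome assembly, where the changes past the stop codon were -1.27, -3.95 and -1.48 nt. In SER3 the cluster at 322755 held 8, 13 and 13 reads in the deletion group and 3, 5 and 5 in wild type. It lies at -1340 nt relative to the stop codon, near the start of the coding region, and inside SRG1 (chrV:322212-322762), a noncoding RNA transcribed on the same strand over the SER3 promoter. Its share of the reads assigned to SER3 was 14.8% ± 5.83 in the deletion group and 6.23% ± 2.68 in wild type. The reads of the 2 transcripts cannot be told apart there.

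Among 945 tested convergent genes the balance between pA sites changed in 1, YGP1 (adjusted p = 0.0040, edgeR), against a background of 0.21% over all genes. At an unadjusted p under 0.05 there were 37 convergent genes (3.92%, against 5.67% of all). YGP1 (YNL160W) encodes a secreted glycoprotein of nutrient-limited cells. It has a cluster at 336565, near the start of its coding region (336545 to 337609). Whether the reads there mark ends of YGP1 mRNA was not tested. Its main cluster lies at 337840, 231 nt past the stop codon. The first held 43, 37 and 40 reads in the deletion group and 28, 13 and 23 in wild type, and the second 301, 308 and 404 against 76, 53 and 50. The main cluster stood higher in every deletion library, while the groups lay closer at the other. YGP1 was not called without deletion replicate 3 (adjusted p = 0.060, edgeR), wild-type replicate 1 (0.11) or wild-type replicate 3 (0.26).

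The second question was whether the levels of facing genes changed, and whether they changed together. The mRNA level changed in 14 of 1294 tested convergent genes (1.08%), 12 higher and 2 lower in the deletion. The background over all 3366 tested genes was 1.31% (1.07% higher and 0.238% lower), so the share among convergent genes was near it. At an unadjusted p under 0.05 the shares were 9.58% of convergent and 9.83% of all genes. The median log2 fold change was 0.008 in convergent and -0.006 in other genes, with -0.0003 over all. In the pairs with over 90% of pairings overlapping it was 0.03, as in those with under 10%.

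No called gene faced another called gene. Of the 13 partners that could be tested, 0 passed the adjusted threshold of edgeR, 2 had an unadjusted p under 0.05, 8 lay below 0 and 5 above. Their log2 fold changes ran from -0.48 to 0.34 with a median of -0.14. By DESeq2, 0 of these partners were called either.

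The largest change was in GPH1, the glycogen phosphorylase (YPR160W, chrXVI:861306-864014). It stood at 518, 488 and 597 CPM in the deletion group and at 136, 43.4 and 101 CPM in wild type. All deletion libraries lay above all wild-type ones, and the level rose by a log2 fold change of 2.43 (SE 0.21, adjusted p = 9.84e-12, edgeR). Its neighbour SGV1, a kinase gene of transcription elongation, stood at 55.1, 48.0 and 60.9 CPM against 67.8, 73.8 and 47.1 CPM. These groups overlapped (log2 fold change -0.19, SE 0.27, adjusted p = 0.87, edgeR). The most-read ends of the 2 genes had an overlap of -189 nt, at 864168 and 864358, and 29.3% of read pairings overlapped.

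GSY2, a glycogen synthase (YLR258W, chrXII:660716-662833), stood at 199, 195 and 214 CPM in the deletion group and 57.0, 30.4 and 61.5 CPM in wild type (log2 fold change 1.98, SE 0.23, adjusted p = 4.50e-08, edgeR). HSP60, the mitochondrial chaperonin that faces it (YLR259C, chrXII:663284-665002), stood at 1018, 859 and 624 CPM against 958, 1441 and 1101 CPM. The HSP60 groups overlapped and the change did not pass (log2 fold change -0.48, SE 0.16, unadjusted p = 0.0039, adjusted p = 0.16, edgeR). It passed without deletion replicate 1 (adjusted p = 0.047, edgeR) or wild-type replicate 1 (0.034), and the log2 fold change was -0.32 without wild-type replicate 2. In GSY2, 37.3% of reads ended at 661705, inside the coding region at -1128 nt relative to the stop codon. The HSP60 cluster at 663188 held 79.2% ± 2.18 of its reads in the deletion group and 79.8% ± 4.75 in wild type, and that of GSY2 at 663197 held 51.4% ± 1.33 and 59.3% ± 2.42.

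HXK1, a hexokinase (YFR053C, chrVI:253592-255049), stood at 1294, 1038 and 1233 CPM in the deletion group and 290, 199.6 and 369 CPM in wild type (log2 fold change 2.04, SE 0.17, adjusted p = 5.17e-12, edgeR). The proteasome subunit gene RPN12, which it faces, stood at 527, 427 and 496 CPM against 518, 378 and 510.5 CPM, with a log2 fold change of 0.03 (SE 0.15, adjusted p = 0.97, edgeR). HXK1 ended at 1 main cluster with 94.2% ± 2.53 of its reads in the deletion group and 95.1% ± 2.35 in wild type. RPN12 used several, and its most-read one held 59.7% ± 0.856 and 56.1% ± 11.96. The facing ends overlapped in 30.1% of pairings.

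**Figure D4:**
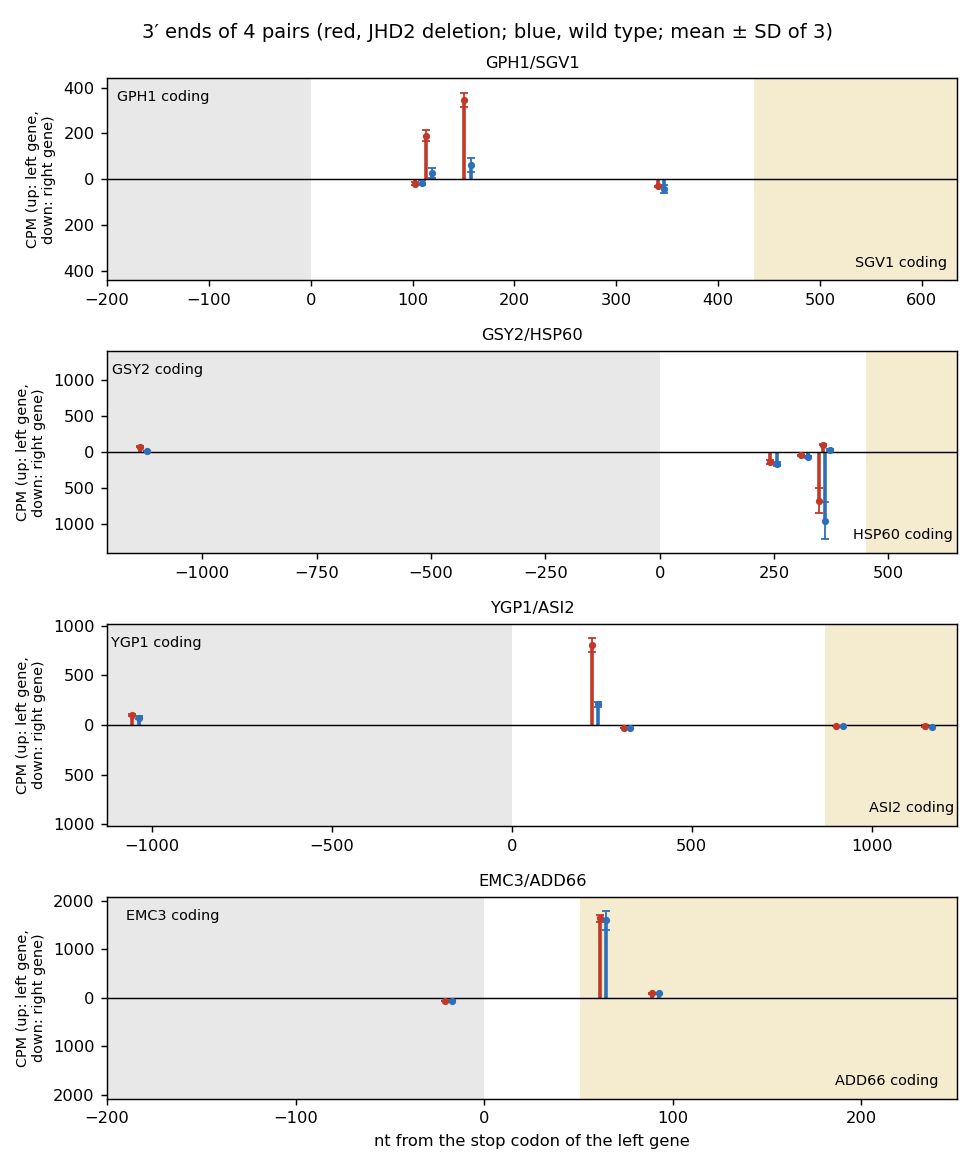
Lines give the level of each cluster with 20 or more reads in all libraries together (y axis in CPM, upward for the left gene on the plus strand, downward for the right gene; mean ± SD of 3 libraries; red, JHD2 deletion; blue, wild type) by distance from the stop codon of the left gene (x axis in nt; paired lines are set slightly apart). GPH1, GSY2 and YGP1 stand higher in the deletion while SGV1, HSP60 and ASI2 do not, and the main EMC3 cluster lies 63 nt past its stop codon inside the shaded ADD66 coding region.

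YRO2, a membrane protein gene of the weak-acid response, stood at 271, 302 and 315 CPM in the deletion group and 57.0, 69.4 and 72.4 CPM in wild type (log2 fold change 2.17, SE 0.20, adjusted p = 1.48e-10, edgeR). Its partner PRP6, a splicing factor gene, had 197 CPM ± 34.6 against 202 ± 21.9. Both main clusters of PRP6 ended in genomic runs of A. YGP1 stood at 824, 921 and 933 CPM against 282, 286 and 264 CPM (1.68, SE 0.15, adjusted p = 5.16e-11, edgeR), facing ASI2, of the inner nuclear membrane, at 74.4 CPM ± 11.6 against 86.0 ± 7.06. SPI1, a cell wall protein gene, rose from 108 CPM ± 7.72 to 358 ± 19.3, and its partner UBP3 had too few reads to be tested. STF2, a gene of ATP synthase regulation and desiccation tolerance, rose from 303 CPM ± 57.7 to 621 ± 56.8 with ECT1, of phospholipid synthesis, at 97.7 ± 22.4 in the deletion against 95.9 ± 11.3. YLR297W, of unknown function, rose from 45.6 CPM ± 14.7 to 126 ± 3.77, with YHC1, a splicing gene, at 36.3 ± 3.83 against 39.3 ± 6.78.

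The other called genes moved less or rested on single libraries. VID24, of vacuolar degradation of gluconeogenic enzymes, had a log2 fold change of 1.25 (adjusted p = 0.025, edgeR), GSP2, a Ran GTPase gene, 0.90 (0.018), URA1, of pyrimidine synthesis, 0.72 (0.0098), and CTS1, a chitinase of cell separation, 0.61 (0.020). Each of these lost its call without at least 1 library. VID24 had few reads, with 31, 25 and 41 in the deletion group and 18, 5 and 5 in wild type. THI6, of thiamine synthesis, stood at 292, 275 and 244 CPM in the deletion group and 353, 816 and 427 CPM in wild type (log2 fold change -0.95, SE 0.20, adjusted p = 0.0029, edgeR). Without wild-type replicate 2, its highest library, the value was -0.53 (adjusted p = 0.065, edgeR).

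GCN1, a translational activator of the amino acid starvation response (YGL195W, chrVII:131525-139543), was called lower at 738, 651 and 706 CPM in the deletion against 792, 1892 and 851 CPM (log2 fold change -0.74, SE 0.19, adjusted p = 0.030, edgeR). At 140336, lying 793 nt downstream of its stop codon, 1 cluster had 82.9% of its reads, and 395 of the reads in wild-type replicate 2 against 242 and 196 in replicates 1 and 3.

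GCN1: ataaaaaaaaaaaaaaaaaaaaaaAcggga

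This stretch (chrVII:140312-140341, plus strand, last aligned base in capitals) is shown because the cluster ends a run of 23 A in the genome. Without clusters that end in such runs the log2 fold change was -0.03 (adjusted p = 0.97, edgeR), and without wild-type replicate 2 it was -0.24 (0.54). The other GCN1 cluster with many reads, 121 nt past the stop codon, stood at 150 CPM ± 15.6 in the deletion group and 154 ± 22.6 in wild type. HOS2, a histone deacetylase gene that faces GCN1, had a log2 fold change of 0.34 (SE 0.21, adjusted p = 0.59, edgeR).

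**Figure D5:**
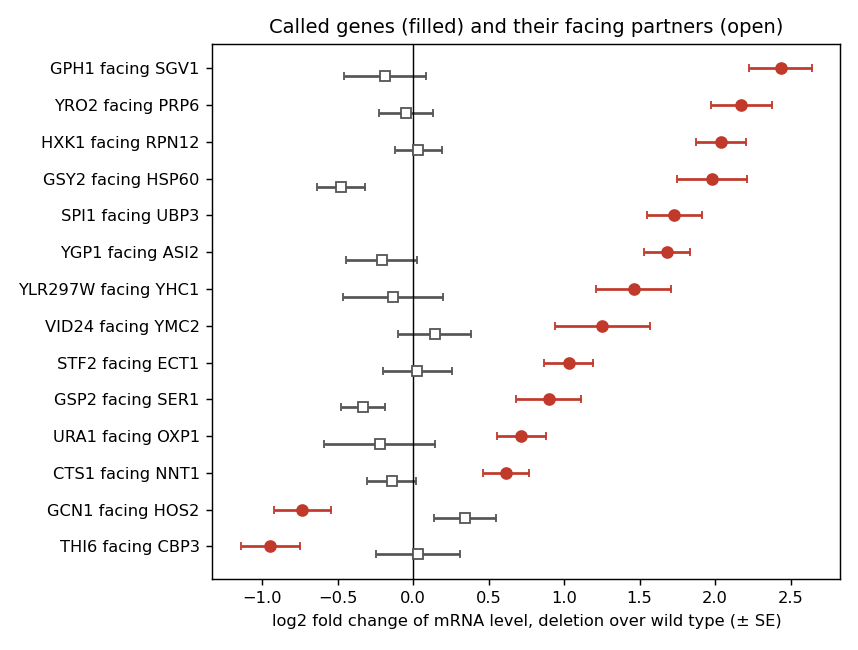
Log2 fold change of mRNA level, deletion over wild type, with its SE (x axis) for the 14 called convergent genes (filled) and their 13 tested partners (open squares); UBP3 was not tested. Called genes run from -0.95 to 2.43, while the partners lie between -0.48 and 0.34.

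A direct test asked whether the 2 genes of a pair changed by different folds, over convergent, tandem and divergent neighbours alike. It called 8 of 551 convergent pairs (1.45%), against a background of 1.41% over 1841 neighbouring pairs. In the order W minus C gene, the difference in log2 fold change was 2.62 in GPH1/SGV1, 2.46 in GSY2/HSP60, 2.22 in YRO2/PRP6, -2.005 in RPN12/HXK1 and 1.89 in YGP1/ASI2. The largest adjusted p among these was 3.36e-07 (edgeR). It was -1.23 in SER1/GSP2 (adjusted p = 0.00087, edgeR), 1.596 in YLR297W/YHC1 (0.028) and -1.003 in ECT1/STF2 (0.032). Each of these 8 pairs holds a gene already called for mRNA level from the same counts, so the calls of balance are no separate support. In SER1/GSP2, a gene of serine synthesis that faces the Ran GTPase gene, SER1 stood at 618, 515 and 536 CPM in the deletion group and 659, 781 and 670 CPM in wild type. Its groups did not overlap, and the change did not pass (log2 fold change -0.33, SE 0.14, adjusted p = 0.39, edgeR). Groups without overlap were common, in 524 of all 3366 tested genes (15.6%) and in 214 of 1294 convergent ones (16.5%). ECT1/STF2 lost the call without any 1 of the 6 libraries and YLR297W/YHC1 without any 1 of them except wild-type replicate 2. Both also lost it with clusters past the stop codon only and without clusters at genomic A runs.

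Over all pairs the fold changes of facing genes showed little relation in rank. Their Spearman correlation was -0.01 over 551 convergent pairs, -0.07 over 838 tandem and 0.06 over 452 divergent pairs, and partners changed in the same direction in 47.7%, 46.7% and 51.8%. In convergent pairs with over 90% of pairings overlapping the correlation was -0.05 (111 pairs) and with under 10% it was 0.08 (62 pairs). These are descriptions across pairs measured in the same libraries and carry no test.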

How the data were processed

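The authors deposited raw read counts for each pA cluster in each library. Per the series description, reads over 15 bp were aligned with Bowtie2 (local mode) to sacCer3; they kept alignments with mapping quality 10 or more, at most 5% mismatches and 2 or more unaligned T, clustered ends within 24 bp and gave clusters to genes extended by up to 1000 bp. They kept clusters with 3 or more reads and 5% of a gene's reads. Bowtie2's version is not given in the sources here. The table holds genes with 2 to 10 clusters, so column totals are not library depths. Read direction gives the strand. Deposited positions were read as counting from 0: under that reading the base after a cluster was A in 0 of 6760 plus-strand clusters, otherwise in 89.8%. No most-read member end (last 40 nt) had a second copy in the genome.

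Counts were summed per gene and tested in R 4.3.3 by edgeR (version 4.0.16) quasi-likelihood with TMM, its default filter on low counts, and Benjamini-Hochberg adjustment over all genes at a threshold of 0.05. Site usage (clusters with 20 or more reads) and partner balance used diffSpliceDGE of edgeR over all genes or all neighbouring pairs. Gene CPM are scaled to tested genes and cluster CPM to retained clusters. Library values were compared by exact permutation. Errors are SD over 3 libraries unless an SE is named. Scripts were tested on simulated data. Alternatives included DESeq2 1.42.0, other minimums, clusters past the stop codon only and each library left out. Leaving out clusters at genomic A runs, and pairs over 1000 nt apart, were chosen after seeing the data.

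The members and rules were chosen with earlier results of these data known. Pairs are named if a gene or the balance was called, or as the 6 with most reads, the 6 largest and 4 smallest mean overlaps, the 5 genes with the highest share in the facing coding region, and the 3 largest rises and 3 largest falls of mean overlap without overlap between groups. Gene names and coordinates come from the RefSeq annotation of the same assembly, in which 4013 of 4014 genes were found.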

Additional observations from a re-analysis of the deposited data

How the results depend on the processing

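Of the 14 called genes, 8 (HXK1, GPH1, YGP1, YRO2, SPI1, GSY2, STF2 and YLR297W) kept their call under every alternative run, and 0 changed direction. DESeq2's Wald test called 9 convergent genes in place of 14, and leaving out single libraries gave 10 to 18. Usage calls went from 1 to 0 with clusters past the stop codon only, where YGP1 keeps 1 cluster, and lay between 0 and 1 without single libraries. Balance calls were 5 in place of 8 without clusters at genomic A runs, where PRP6 could no longer be tested, and 7 to 10 without single libraries.

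Some differences in library values changed sign. The mean end of convergent against other genes differed by 0.607 nt at a minimum of 50 reads. Mean overlap differed by 12.7 nt from the most-read cluster of each library (exact p = 0.3). Overlapping pairings differed by 1.79 points as a median and by -0.497 to 0.315 points without single libraries. With the pairings of all pairs pooled they differed by 3.03 points (exact p = 0.1, the smallest possible). For partners near 0, values without single libraries ran from -0.10 to 0.11 in RPN12, -0.17 to 0.076 in PRP6, -0.081 to 0.20 in ECT1, -0.25 to 0.019 in YHC1, -0.23 to 0.26 in CBP3 and -0.0027 to 0.23 in YMC2. ECT1 was at -0.27 without clusters at A runs. The change of overlap in UBP7/GUT2 was -15.2 nt past the stop codon and -68.7 nt from most-read clusters, and that of GPI12/AEP2 was -10.8 nt past the stop codon. Beyond what the construction of each setting shows, the cause was not tested.

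Same-numbered libraries did not deviate together (correlations -0.094, -0.028 and -0.011), which gave no sign of pairing by number. The labels do not say whether libraries of the same number share a culture or a batch. With the replicate number as a block, 11 genes (without CTS1, GCN1 and VID24), 1 usage gene and 9 pairs were called, and ECT1 was at -0.0053. The differences in library values stayed at -3.35 nt, -0.0542 points, -0.272 points and -2.51 nt, with exact p of 0.75, 1, 0.25 and 0.25, where 0.25 is the smallest possible. Depth limits the rest: 450 of 761 pairs lacked a mean of 20 reads in both genes.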
